A study of Mus musculus with 13 samples.

Results

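The genes of the Rhox and Tgif families, which encode homeodomain proteins, were followed in purified mouse round spermatids with altered levels of the multicopy genes Sly and Slx/Slxl1. Members were taken as all genes with a symbol starting with Rhox or Tgif and a probe detected (detection p under 0.05) on at least 3 of the 13 arrays. This gave 7 genes, each with 1 probe, of the 12 Rhox and Tgif genes for which the probe table names 16 probes, and of 14660 genes tested. They were Rhox5, Rhox10, Rhox11, Rhox12, Rhox13, Tgif2lx1 and Tgif1. Rhox11, Tgif2lx1 and Rhox5 were chosen by name, Rhox11 and Tgif2lx1 with their measured rise in shSLY and in shSLX1shSLY relative to WT already known, so every comparison that uses shSLY or shSLX1shSLY arrays is given for all 3 as a description with no p. The other 4 were selected on detection alone.

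The shSLX1shSLY males (3 arrays) carried 2 short hairpin RNA transgenes and were deficient for both Sly and Slx/Slxl1, the shSLY males (3 arrays) were Sly-deficient, the shSLX1 males (3 arrays) were Slx/Slxl1-deficient, and the WT males (4 arrays) were siblings without a transgene. All were young adults of about 8 weeks on the MF1YRIII background, and each array was hybridized with RNA of round spermatids purified from the pooled testes of 2 to 5 males. The hairpins lower the transcripts of their target genes and delete none of them, and the promoters that drive the transgenes are stated in none of the sources at hand. Round spermatids are haploid male germ cells that have finished meiosis and have not yet elongated.

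Homeodomain proteins bind DNA and regulate transcription. The Rhox (reproductive homeobox) genes form a cluster on the mouse X chromosome and are expressed mainly in testis, epididymis, ovary and placenta. Rhox5, the founding member, is known as an androgen-responsive gene of Sertoli cells, the somatic cells that nurse the germ line, and Rhox10 as a gene of spermatogonia. TGIF proteins belong to the TALE class of homeodomain proteins, whose homeodomain holds an extra loop; Tgif1 acts mostly as a repressor that recruits corepressors and restrains SMAD proteins of the TGF-beta pathway. Tgif2lx1 is an X-linked retrogene of this family expressed in testis. The X chromosome is silenced during meiosis and remains largely repressed in round spermatids, and Sly is known to take part in that repression.

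Before the groups are compared, 3 facts of the whole series bear on the values. The single Sly probe read 10.30 to 10.63 on the log2 scale in shSLX1shSLY, 10.08 to 10.71 in shSLY, 8.65 to 10.21 in shSLX1 and 9.85 to 10.35 in WT; which of the multicopy transcripts it detects is unknown here, so it is no check of the labels. The 20382 probes undetected on all arrays sorted the arrays into 3 sets (Ward clustering). Set 1 held shSLY replicates 1 and 2 with WT replicates 1 and 2, set 2 held shSLX1 replicates 1 and 2 with WT replicates 3 and 4, and set 3 held all shSLX1shSLY arrays with shSLY replicate 3 and shSLX1 replicate 3. Comparisons of shSLX1shSLY with WT therefore lie wholly between sets. Between 16110 and 19057 probes were detected per array. Of 10 round spermatid markers 8 were tested, with Prm1, a protamine gene, at a mean log2 intensity of 15.01, and none of the 8 was called in any comparison with WT. The summed signal of 3 tested red blood cell markers of 7 listed had its highest median in shSLY, with ranges that overlapped WT: it was 190 to 239 in shSLX1shSLY, 789 to 3379 in shSLY, 220 to 406 in shSLX1 and 157 to 2138 in WT, and its part in the results for shSLY was not tested. In RNA of such a preparation, fewer cells of a type and less RNA per cell cannot be told apart.

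The 5 detected Rhox genes lie on the X chromosome between positions 37754608 (the start of Rhox5) and 38129966 (the end of Rhox13), Tgif2lx1 lies far from them at chrX:118479708-118480729, and Tgif1 is autosomal, at chr17:70844205-70853532 (GRCm38.p6). Of 4 neighbouring Rhox genes, Rhox11 was called against WT and Rhox13 was not (log2 ratio 0.90 in shSLY, limma adjusted p = 0.0585). Rhox12 and Rhox10 were not called either, but were near the detection limit (7 and 5 of the 13 arrays), where a change might not be seen. The sequences before the annotated starts of these 4 genes are shown because the genes neighbour each other. Each is the 250 bases 5′ of the start on the gene's own strand, from RefSeq (GRCm38.p6): Rhox11 at chrX:38085140-38085389 on the minus strand, Rhox13 at chrX:38120590-38120839 on the plus strand, Rhox12 at chrX:38110908-38111157 on the minus strand, and Rhox10 at chrX:38066225-38066474 on the plus strand. Capitals mark exact matches, on either strand, to 7 motifs: the TATA box (TATAAA), the cAMP response element bound by the spermatid activator CREM (TGACGTCA), the shorter core of that element (TGACG), the E-box (CACGTG), the CCAAT box (CCAAT), the GC box (GGGCGG) and the core bound by TGIF proteins (TGTCA).
Rhox11: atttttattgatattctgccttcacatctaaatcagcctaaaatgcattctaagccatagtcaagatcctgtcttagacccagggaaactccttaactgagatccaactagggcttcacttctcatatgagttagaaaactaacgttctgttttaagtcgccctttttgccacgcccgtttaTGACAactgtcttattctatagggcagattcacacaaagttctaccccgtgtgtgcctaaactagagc
Rhox13: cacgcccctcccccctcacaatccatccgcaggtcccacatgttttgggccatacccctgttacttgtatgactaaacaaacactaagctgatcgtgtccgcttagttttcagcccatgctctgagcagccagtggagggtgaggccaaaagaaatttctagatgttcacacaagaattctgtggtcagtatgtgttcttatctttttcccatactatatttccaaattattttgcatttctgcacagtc
Rhox12: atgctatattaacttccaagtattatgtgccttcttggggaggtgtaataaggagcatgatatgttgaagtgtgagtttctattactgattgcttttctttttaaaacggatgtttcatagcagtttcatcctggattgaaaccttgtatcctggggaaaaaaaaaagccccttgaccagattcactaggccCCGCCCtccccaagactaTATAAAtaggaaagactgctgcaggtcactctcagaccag
Rhox10: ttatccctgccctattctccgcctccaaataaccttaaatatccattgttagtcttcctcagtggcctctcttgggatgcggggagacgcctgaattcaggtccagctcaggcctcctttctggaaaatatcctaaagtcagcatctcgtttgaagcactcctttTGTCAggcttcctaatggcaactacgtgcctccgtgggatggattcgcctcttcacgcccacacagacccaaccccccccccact
Rhox11 held 1 match, the TGIF core on the opposite strand starting 68 bases before the gene's start, and Rhox13 held no match. Rhox12 held a TATA box at 40 bases and a GC box at 58 bases before the start, and Rhox10 held a TGIF core at 85 bases before it. Among all 32851 promoter windows of the same length, 40% held the TGIF core, 12.4% the TATA box, 32.7% the GC box, 33.8% the CCAAT box, 17.8% the shorter core of the response element, 6.02% the E-box and 1.55% the full response element, so a TGIF core is common, and a match is a description of letters only. Promoters were matched for 6 of the 7 genes.

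Tgif2lx1 was high on the arrays with the shSLY transgene. Its log2 intensity was 10.37, 10.32 and 10.58 on the shSLX1shSLY arrays, 10.47, 10.33 and 10.86 on the shSLY arrays, 9.18, 8.82 and 9.17 on the shSLX1 arrays, and 8.82, 8.95, 8.81 and 8.88 on the WT arrays. All 6 arrays with the shSLY transgene lay above all 7 without it. The groups averaged 10.42 ± 0.14, 10.56 ± 0.27 and 9.06 ± 0.21 (SD, n = 3 each) for shSLX1shSLY, shSLY and shSLX1, and 8.86 ± 0.06 (SD, n = 4) for WT. In the order of the means, shSLY and shSLX1shSLY overlapped, and so did shSLX1 and WT. The near-identical copy Tgif2lx2 was not named in the probe table, and whether the probe also detects it was not tested.

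Rhox11, a member of the cluster expressed in testis, had the same high and low groups with a difference between the high ones. Its log2 intensity was 8.26, 8.70 and 8.26 in shSLX1shSLY, 9.25, 9.01 and 9.44 in shSLY, 7.46, 6.71 and 6.99 in shSLX1, and 7.29, 7.27, 7.27 and 7.39 in WT. The shSLY arrays were highest, the shSLX1shSLY arrays lay between them and the rest without overlap, and the shSLX1 arrays surrounded the narrow WT range. The group means were 8.41 ± 0.26, 9.23 ± 0.22 and 7.05 ± 0.38 (SD, n = 3 each) in shSLX1shSLY, shSLY and shSLX1, and 7.30 ± 0.06 (SD, n = 4) in WT.

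**Figure D1:**
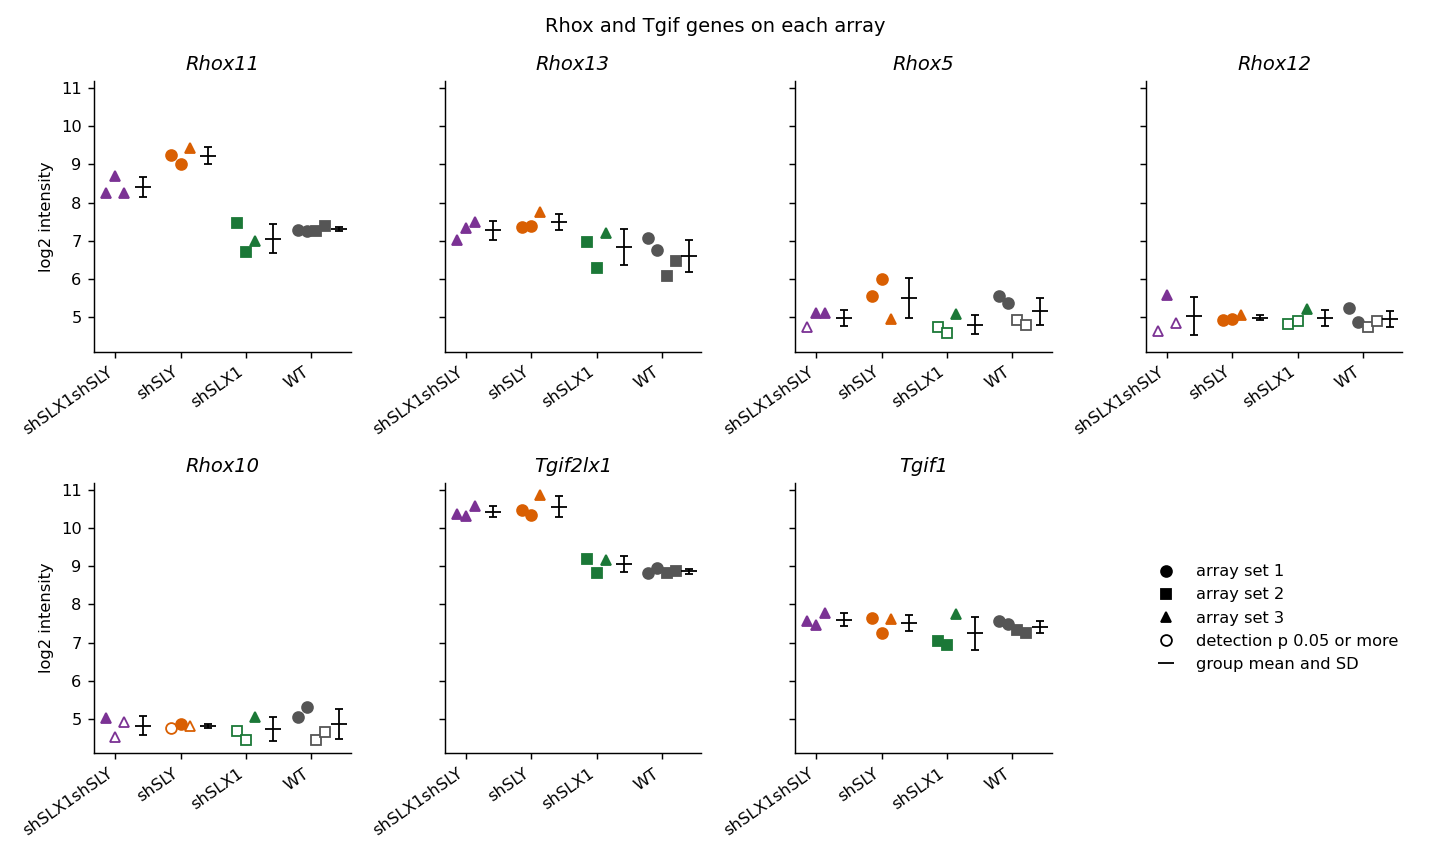
Log2 intensity (vertical axis) of the 7 genes on each of the 13 arrays, in the order shSLX1shSLY, shSLY, shSLX1, WT; marker shape gives the array set, open markers a detection p of 0.05 or more, and bars the group mean and SD. For Tgif2lx1 and Rhox11 all 6 arrays with the shSLY transgene lie above all 7 without it, while Rhox5, Rhox12 and Rhox10 stay near the detection limit.

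Against WT, the log2 ratio of Tgif2lx1 was 1.56 (SE 0.15, 2.95-fold) in shSLX1shSLY and 1.69 (SE 0.15, 3.23-fold) in shSLY. That of Rhox11 was 1.10 (SE 0.18, 2.15-fold) in shSLX1shSLY and 1.92 (SE 0.18, 3.80-fold) in shSLY. These are the values that named both genes. Counted from the highest ratio to WT down among the 14660 genes, Tgif2lx1 ranked 36 in shSLX1shSLY and 15 in shSLY, and Rhox11 ranked 192 and 8 in the same groups. To be called, a gene needed a Benjamini-Hochberg adjusted p from limma below 0.05 with a change of more than 1.5-fold. These 2 of the 7 genes were called higher than WT in both groups and none was called lower; over all genes tested, 8.89% were called in shSLX1shSLY and 3.08% in shSLY, and since the contrast chose these genes nothing is read from the counts. With the array set as a block, Rhox11 was no longer called in shSLX1shSLY against WT (log2 ratio 0.99). Within set 1, the shSLY arrays exceeded the WT arrays by 1.85 for Rhox11 and 1.52 for Tgif2lx1 (2 against 2 arrays).

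Markers of other cell types also varied between the groups, but not all of them along with the shSLY transgene. The summed signal of 3 tested Leydig cell markers of 7 listed was 241 to 360 in shSLX1shSLY, 262 to 672 in shSLY, 122 to 254 in shSLX1 and 161 to 197 in WT, so that neither group with the shSLY transgene overlapped WT. Of the 3, Insl3, a hormone gene of Leydig cells, had log2 ratios to WT of 0.90 in shSLX1shSLY, 1.28 in shSLY and 0.05 in shSLX1. In the same order, Cyp17a1 had 0.02, 0.52 and -0.13 and Cyp11a1 had -0.31, -0.05 and -0.26. None of the 3 was called. Insl3 was the brightest, with a mean log2 intensity of 7.48 against 4.93 for Cyp17a1 and 4.67 for Cyp11a1. Star, Hsd3b1 and Hsd17b3 were detected on no array. The sum of 7 tested macrophage markers of 10 listed was 351 to 495 in shSLX1shSLY, 517 to 622 in shSLY, 388 to 506 in shSLX1 and 275 to 603 in WT. All 7 were above the WT mean in shSLY with none called. In shSLX1shSLY only 3 of the 7 were above it, with a median log2 ratio of -0.08, and 1, Adgre1, was called higher than in WT (0.90). The summed signals of 5 tested spermatocyte markers of 8 listed, and of 5 tested spermatogonium markers of 9, overlapped WT in every group. None of these was called against WT. Sycp1 had 1.02 in shSLX1shSLY, where 3 of the 5 spermatocyte markers were above the WT mean. Sohlh1, of the spermatogonium list, was called lower in shSLX1shSLY than in shSLX1. The part of all these cells in the results for Tgif2lx1 and Rhox11 was not tested.

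The comparison of shSLX1shSLY with shSLX1 asks what the shSLY transgene did in spermatids already deficient for Slx/Slxl1. It uses the shSLX1shSLY arrays that helped to name both genes, so its values are a description as well. Tgif2lx1 was higher by 1.37 on the log2 scale (SE 0.16, 2.58-fold) and Rhox11 by 1.36 (SE 0.19, 2.56-fold), in 3 of 3 shSLX1shSLY arrays against 3 of 3 shSLX1 arrays for each gene. They were the 2 of the 7 genes called, beside 7.54% of all genes, and nothing is read from this count. Within set 3 the differences were 1.26 for Tgif2lx1 and 1.42 for Rhox11 (3 arrays against 1). The shSLX1 transgene alone gave no call among the 7 genes, against 1.78% of all genes, and none of the 7 had an unadjusted p under 0.05, against 1777 of all genes. This comparison shares its WT arrays with those that named the genes. Relative to WT the log2 ratio in shSLX1 was 0.19 for Tgif2lx1 (SE 0.15, 95% interval -0.13 to 0.52, limma adjusted p = 0.664) and -0.25 for Rhox11 (SE 0.18, interval -0.64 to 0.13, limma adjusted p = 0.622).

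**Figure D2:**
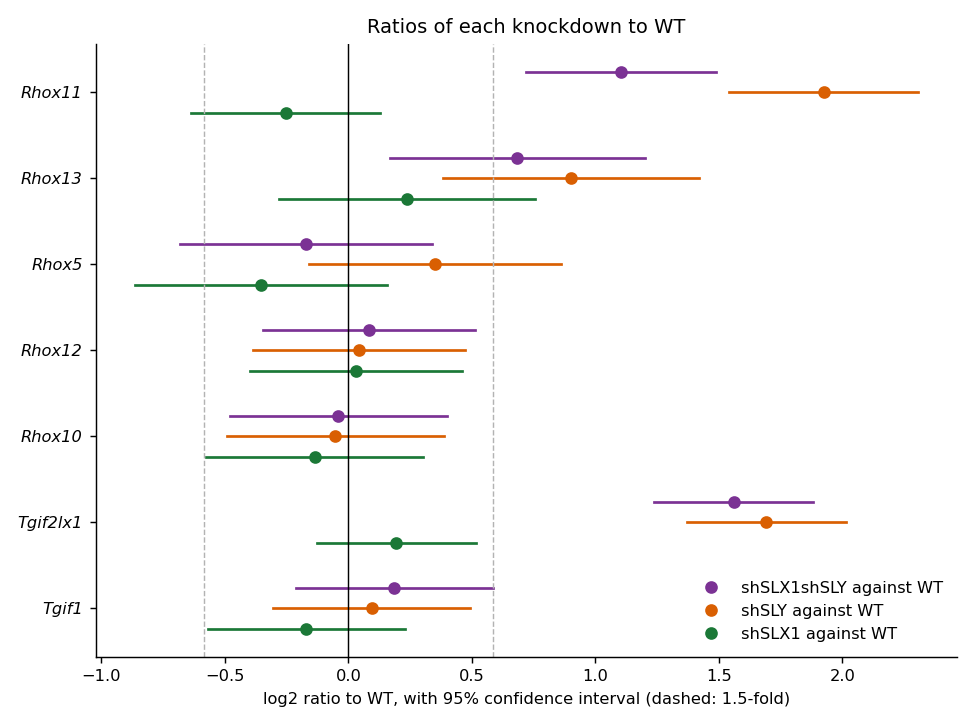
Log2 ratio to WT (horizontal axis, points) with 95% confidence intervals (lines) for each gene, with shSLX1shSLY above shSLY and shSLX1; dashed lines mark a 1.5-fold change. The intervals of Rhox11 and Tgif2lx1 lie to the right of the 1.5-fold line in shSLX1shSLY and shSLY. These are the values that named both genes, so the intervals are a description and no test. All shSLX1 intervals span 0.

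The comparison of shSLX1shSLY with shSLY asks what the shSLX1 transgene did beside shSLY; whether its size differed between genes was not tested. Rhox11 was -0.82 on the log2 scale in shSLX1shSLY relative to shSLY (SE 0.19, 0.566-fold), and each shSLX1shSLY array, the highest at 8.70, lay below each shSLY array, the lowest at 9.01. Tgif2lx1 was -0.13 (SE 0.16), with overlapping arrays. Neither met the call rule, nor did any other of the 7 genes, against 0.102% of all genes called in this comparison. An unadjusted limma p under 0.05 was reached by 2977 of all genes, and no p is read for the genes chosen by name. Within set 3, where the 3 shSLX1shSLY arrays meet 1 shSLY array, the difference was -1.03 for Rhox11 and -0.44 for Tgif2lx1. The interaction of the knockdowns, which is the effect of shSLY with shSLX1 present minus its effect without, was -0.57 for Rhox11 (SE 0.26) and -0.32 for Tgif2lx1 (SE 0.22). It uses the arrays that named both genes and is a description too. None of the 7 genes was called for it, against 1.37% of all genes, and 1456 of all genes had an unadjusted limma p under 0.05. Without shSLY replicate 3, the only shSLY array of set 3, Rhox11 (log2 ratio -0.72) and Rhox5 (-0.80) were called lower in shSLX1shSLY than in shSLY, together with 1863 of all genes in place of 15. In shSLY relative to shSLX1, Tgif2lx1 was 1.498 higher (SE 0.16) and Rhox11 2.18 higher (SE 0.19); they were the 2 genes called, beside 6.84% of all genes, and nothing is read from this count, since the shSLY arrays named both genes. All 3 tested red blood cell markers were called higher in the same comparison.

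Rhox13, a germ cell member of the cluster, was measured on all arrays and ran in the same direction with a smaller size that did not pass the test. Its log2 intensity was 7.01, 7.33 and 7.49 in shSLX1shSLY, 7.36, 7.38 and 7.75 in shSLY, 6.98, 6.30 and 7.21 in shSLX1, and 7.06, 6.75, 6.08 and 6.48 in WT. All shSLY arrays lay above all WT and all shSLX1 arrays, while the shSLX1shSLY arrays overlapped both. The log2 ratio to WT was 0.68 in shSLX1shSLY (SE 0.24, limma adjusted p = 0.0776), 0.90 in shSLY (SE 0.24, limma adjusted p = 0.0585) and 0.24 in shSLX1 (SE 0.24, limma adjusted p = 0.748). The WT arrays of set 1 read 7.06 and 6.75 and those of set 2 read 6.08 and 6.48, and within set 1 the excess of shSLY over WT was 0.46. Rhox13 was called in shSLY against WT under 4 of 22 alternatives, which were without WT replicate 1 (log2 ratio 1.06), without shSLX1 replicate 2 or 3, and with array quality weights (0.63), and in shSLX1shSLY against WT without both single-transgene arrays of set 3. A block for the array set gave ratios of 0.57 in shSLY and 0.21 in shSLX1shSLY, neither of them called.

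Tgif1, the autosomal repressor, was detected on all arrays. It read 7.56, 7.45 and 7.78 in shSLX1shSLY, 7.64, 7.26 and 7.62 in shSLY, 7.04, 6.94 and 7.74 in shSLX1, and 7.57, 7.49, 7.32 and 7.25 in WT. The arrays of the 4 groups overlapped. Its log2 ratio to WT was 0.19 in shSLX1shSLY (SE 0.19, 95% interval -0.21 to 0.58), 0.09 in shSLY (SE 0.19, interval -0.30 to 0.49) and -0.17 in shSLX1 (SE 0.19, interval -0.57 to 0.23), with limma adjusted p = 0.519, 0.854 and 0.766. Without shSLX1 replicate 3 it was called higher in shSLX1shSLY than in shSLX1 (log2 ratio 0.61).

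Rhox5, Rhox12 and Rhox10 were near the detection limit and just inside the membership rule, on 8, 7 and 5 arrays. Their detection ran with the array sets: of the 4 arrays of set 1, Rhox5 was detected on 4, Rhox12 on 4 and Rhox10 on 3, whereas none of the 3 genes was detected on any of the 4 arrays of set 2. On the 5 arrays of set 3 they were detected on 4, 3 and 2. Median signals of undetected probes were 53.4 to 56.1 intensity units in set 1, 71.1 to 78.1 in set 2 and 71.7 to 78.1 in set 3. The part of the background in these low values was not tested.

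Rhox5 read 4.73, 5.12 and 5.10 in shSLX1shSLY, 5.56, 6.004 and 4.96 in shSLY, 4.75, 4.58 and 5.08 in shSLX1, and 5.54, 5.36, 4.93 and 4.79 in WT. The 4 arrays of set 1, which are shSLY and WT, had the 4 highest values, and the third shSLY array lay with the other groups. Its log2 ratio to WT was -0.17 in shSLX1shSLY (SE 0.24), 0.35 in shSLY (SE 0.24) and -0.35 in shSLX1 (SE 0.24), and the arrays overlapped in each comparison. The sum of 5 tested Sertoli cell markers of 12 listed ranged over 422 to 779 intensity units in shSLX1shSLY, 718 to 909 in shSLY, 446 to 498 in shSLX1 and 479 to 911 in WT; Amh, Fshr and Gata4 were detected on no array, and of the 5 tested, Sox9 had a mean log2 intensity of 5.44 and Cldn11 of 7.46. All 5 were above the WT mean in shSLY and none in shSLX1shSLY, none passed the test against WT, and 1, Cldn11, was called in shSLY against shSLX1. The part of Sertoli cell RNA in the Rhox5 values was not tested.

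Rhox12 ranged over 4.65 to 5.59 in shSLX1shSLY, 4.94 to 5.06 in shSLY, 4.81 to 5.22 in shSLX1 and 4.74 to 5.24 in WT. Rhox10 ranged over 4.54 to 5.03 in shSLX1shSLY, 4.76 to 4.86 in shSLY, 4.44 to 5.06 in shSLX1 and 4.45 to 5.32 in WT. The groups overlapped for both genes. Relative to WT, the Rhox12 log2 ratios were 0.08, 0.04 and 0.03 (SE 0.20 each) and those of Rhox10 were -0.04, -0.05 and -0.14 (SE 0.21 each) in shSLX1shSLY, shSLY and shSLX1. For shSLY against WT the 95% intervals ran from -0.39 to 0.47 for Rhox12 and from -0.49 to 0.39 for Rhox10, so changes of this size in either direction could not be told from none.

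Just outside the rule were Rhox8, a Sertoli cell gene, and a second Tgif1 probe, each detected on 2 arrays, and Tgif2 on 1 array. The probes of Rhox1 (2), Rhox6, Rhox9, another one of Tgif1 and a second one of Rhox12 were detected on none. The multiplied genes Rhox2, Rhox3 and Rhox4 were not named in the probe table by symbol, gene identifier or accession and were not analysed here, although some of the 10378 probes without a gene name may measure them.

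Some of the nearest tested genes on either side of the members on the X chromosome were also called higher. These flanking genes were spread widely. Their starts lay between positions 36328358 and 43590989 around the Rhox genes and between 107782751 and 134537256 around Tgif2lx1. Of the 20 tested genes flanking the Rhox genes (10 on each side), 7 were called higher than WT in shSLX1shSLY, 6 in shSLY and 0 in shSLX1, with median log2 ratios of 0.24, 0.45 and 0.06; none was called lower. Of the 20 flanking Tgif2lx1, 11, 10 and 0 were called higher and none lower, with medians of 0.62, 0.86 and 0.14. Over all 355 X genes tested, 94 (26.5%), 117 (33.0%) and 0 were called higher, with medians of 0.30, 0.50 and -0.01, against medians of -0.02 in each comparison over all genes tested. The share called around the Rhox genes was close to that of the whole X chromosome.

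By the smallest adjusted p in shSLY against WT, 4 neighbours per region are named, with their values as a description. Around the Rhox genes, Akap14, which encodes an anchoring protein of cilia and flagella, had log2 ratios to WT of 0.70 in shSLX1shSLY, 1.06 in shSLY and -0.08 in shSLX1. Cypt15, of a family of proteins around the sperm nucleus, had 1.63, 2.03 and -0.01 in these groups, and Tex13c1, a testis-expressed gene, had 0.74, 1.30 and -0.18. Slc25a5, the mitochondrial carrier of adenine nucleotides, had 0.08 in shSLX1shSLY, 0.95 in shSLY and 0.02 in shSLX1. The genes called were not the same in both groups: Pgrmc1, Cul4b, C1galt1c1 and Stag2 were called against WT in shSLX1shSLY and not in shSLY, and Slc25a5, Nkrf and Mcts1 in shSLY and not in shSLX1shSLY, named here after their values were seen. Whether these ratios differed between the groups is not shown by the calls, and none of these genes was called in shSLX1shSLY against shSLY.

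Around Tgif2lx1 the named neighbours were Cldn34c1, of the claudin family of membrane proteins, with 1.14, 1.44 and -0.09, the tetraspanin gene Tspan6 with 1.76, 1.49 and -0.46, Cpxcr1 with 1.30, 1.4997 and 0.14, and the ubiquitin-conjugating enzyme gene Ube2dnl2 with 0.43, 1.17 and -0.31. Each set of 3 values is the log2 ratio to WT in shSLX1shSLY, shSLY and shSLX1. Tspan6 was the one of these 4 with a larger ratio in shSLX1shSLY than in shSLY. Of the 20 neighbours in each region, 16 at the Rhox genes and 19 at Tgif2lx1 had a ratio above 0 in shSLX1shSLY. Thoc2, an mRNA export gene, was chosen from the 20 around the Rhox genes after its values were seen. It had the lowest ratios there, -0.51 in shSLX1shSLY and -0.33 in shSLY, and was not called.

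**Figure D3:**
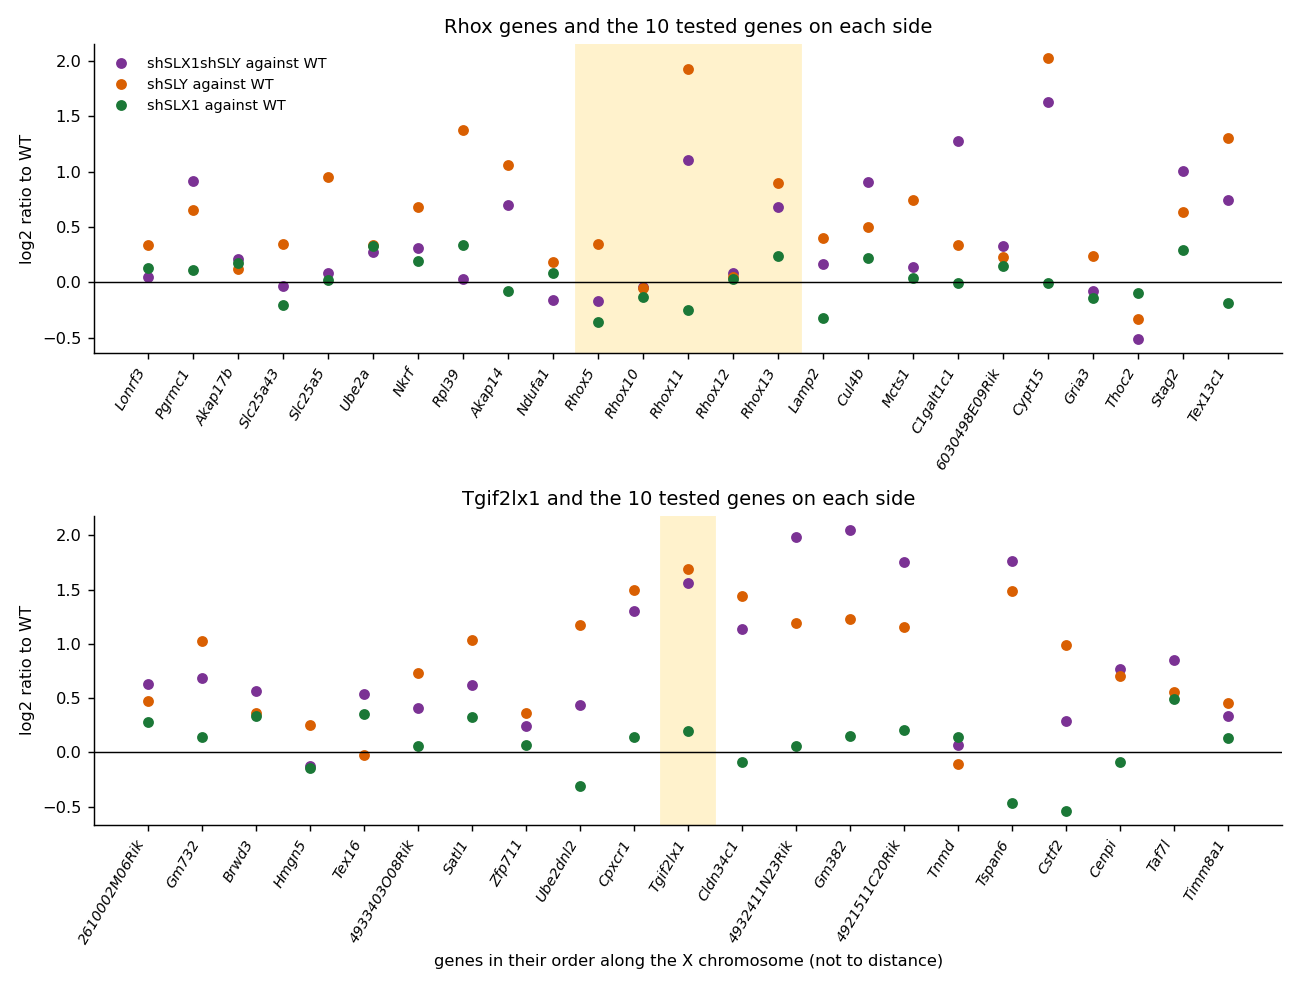
Log2 ratio to WT (vertical axis) of the detected Rhox genes (upper panel, shaded) and of Tgif2lx1 (lower panel, shaded) with the 10 tested genes on each side, in gene order along the X chromosome; colours give shSLX1shSLY, shSLY and shSLX1. Rhox11 at 1.92 in shSLY stands beside Rhox10 and Rhox12 near 0, whose intensities were near the detection limit. Of the 20 neighbours of Tgif2lx1, 10 were called higher in shSLY.

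The genes whose intensities over the 13 arrays were most like those of the named members were found by Pearson correlation, which is a description since all values share arrays and normalization. For Rhox11 they were Akap14 (r = 0.988), Cldn34b4 (0.987), Actrt1 (0.985), Cldn34b2 (0.983) and Tex13c1 (0.980), all 5 on the X chromosome, and Actrt1 encodes an actin-related protein. For Tgif2lx1 they were Cldn34b3 (0.971), Tex13a (0.970), Cldn34c1 (0.963), Ribc1 (0.963) and Thg1l (0.961), of which Thg1l, on chromosome 11, is the one gene off the X. For Rhox5 they were Myl9 (0.925), Brk1 (0.919), Ncaph2 (0.910), Osbpl7 (0.908) and Ogdh (0.904), none on the X, and Myl9 encodes a myosin light chain of smooth muscle. Among the members, Tgif2lx1 and Rhox11 had r = 0.92, Tgif2lx1 and Rhox13 0.81, and Rhox11 and Rhox13 0.76, whereas Rhox11 and Rhox10 had 0.00378 (n = 13 arrays).

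**Figure D4:**
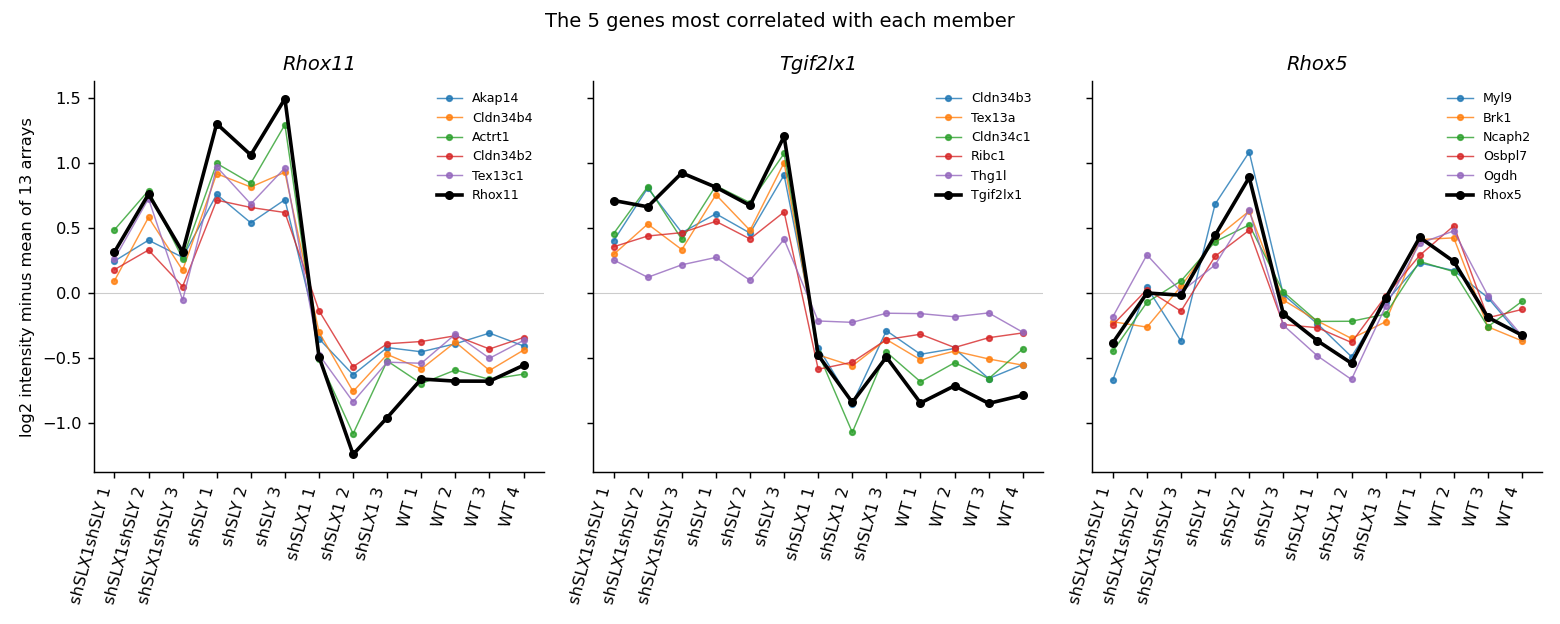
Log2 intensity minus its mean over the 13 arrays (vertical axis) on each array (horizontal axis) for Rhox11, Tgif2lx1 and Rhox5 (black) and the 5 genes most correlated with each (colours). Rhox11 and Tgif2lx1 with their 5 genes lie above 0 on the arrays with the shSLY transgene and below 0 on the others, apart from Tex13c1 on shSLX1shSLY replicate 3, while Rhox5 and its 5 genes are above 0 on the 4 arrays of set 1.

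Related genes outside the families gave few calls. Of 5 other X-linked homeobox genes, only Esx1, known from placenta and male germ cells, was tested, with log2 ratios to WT of 0.56 in shSLX1shSLY, 0.27 in shSLY and 0.17 in shSLX1 and no call. Of 16 other TALE homeobox genes 7 were tested and none was called against WT in either direction, with medians of -0.23, -0.08 and -0.16 in shSLX1shSLY, shSLY and shSLX1. Irx5 had 0.54, 0.45 and -0.01 and Irx2 had -0.12, -0.47 and -0.16 in these groups. In the same order, Meis1 had -0.52, -0.39 and -0.24 and Pknox1 had -0.30, -0.31 and 0.12. Pknox2 (mean log2 intensity 10.28) had ratios of 0.11, 0.03 and -0.09 and Pbx4 (9.92) had -0.23, 0.11 and -0.16, both chosen after their values were seen. Of 10 partners of TGIF proteins 6 were tested, 2 were called lower in shSLX1shSLY than in WT and none in shSLY or shSLX1: Smad3, which transmits TGF-beta signals, at -0.64 and the corepressor gene Ctbp2 at -0.69 on the log2 scale, with -0.37 and -0.30 in shSLY. Over all genes 591 of 14660 were called lower in that comparison, which lies between array sets, and 44 were called in either direction with the array set as a block. Smad3 was detected on 7 arrays, with a mean log2 intensity of 4.99. Skil, a repressor of SMAD proteins, had 0.58, -0.24 and 0.58 in shSLX1shSLY, shSLY and shSLX1 without a call. In these groups Smad2, detected on 7 arrays, had 0.04, 0.30 and 0.04 without a call.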

How the data were processed

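Round spermatid RNA was measured on 13 Illumina mouse BeadChips of 1 colour. The authors deposited unnormalized intensity values with detection p-values for 45281 probes, and a second table of normalized intensity values; GenomeStudio 2011.1 is named in the submitters' notes and BeadStudio in the methods, and other settings in neither. Intensities were put through neqc of limma 3.58.1 (R 4.3.3), which corrects the background, normalizes by quantiles and takes log2 after adding an offset of 16. Probes detected on at least 3 arrays were kept (20250), with the brightest probe per gene. limma fitted 4 group means (9 residual degrees of freedom) with Benjamini-Hochberg adjustment over 14660 genes. A single gene name was given for 34885 probes, several names for 18 and no name for 10378. The fit was tested on simulated data. The number of arrays limits the precision. Same-numbered arrays deviated together for shSLY and WT (correlations 0.11, 0.25 and 0.25) and for shSLY and shSLX1 (0.17, 0.27 and 0.46). For shSLX1 and WT the correlations were -0.05, -0.19 and -0.17, and those with shSLX1shSLY lay between -0.04 and 0.05. Neither the labels nor the methods give a pairing of same-numbered arrays.

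The members and lists were chosen with earlier results of these data known. Genes named besides the members are the 5 most correlated with Rhox11, Tgif2lx1 and Rhox5 and up to 4 per list with the smallest adjusted p in shSLY against WT. Cell type markers are named as well, and so are the genes said above to be chosen after their values were seen. Alternatives were other background corrections and scalings, the authors' normalized values, no filter, every probe, blocks, array quality weights and leaving out each array. Figures were drawn with matplotlib.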

Additional observations from a re-analysis of the deposited data

Results flagged for a closer look

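Rhox11 on WT replicate 4 had a log2 intensity of 7.39, and the nearest of the other 3 WT arrays read 7.29. The gap was large only relative to the WT range of 0.12, and its ratio to that range (0.866) passed the critical value of Dixon's test. About 1 in 20 such groups passes it by chance.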

How the results depend on the processing

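Over 22 alternatives, 149 of 154 counts of called Rhox and Tgif genes were within 1.5 times the reported count, 1060 of 1078 log2 ratios kept their side of the call, and no called ratio changed sign. Tgif2lx1 kept its calls under all alternatives, with log2 ratios to WT of 1.10 to 1.61 in shSLX1shSLY and 1.53 to 1.80 in shSLY. Rhox11 had 0.65 to 1.18 in shSLX1shSLY, where it lost its call with the array set as a block, and 1.54 to 2.04 in shSLY. The cause of that loss was not tested. Both genes were named by these ratios on the same arrays. The calls they kept, here and below, are therefore a description and no support. With the array set as a block, 1 of the 7 genes was called in shSLX1shSLY against WT (2 reported), and 44 of all genes. With array quality weights 3 of the 7 were called in shSLY against WT (2 reported; also Rhox13), 2 in shSLX1shSLY against shSLY (0 reported; Rhox11 and Rhox5) and 4 in shSLY against shSLX1 (2 reported; also Rhox13 and Rhox5). Leaving out single arrays gave 0 to 2 in shSLX1shSLY against shSLY. Leaving out shSLY replicate 3 and shSLX1 replicate 3 together, an alternative chosen after seeing the data, gave 2 there, with 2348 of all genes.

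The replicate block changed no call of a Rhox or Tgif gene (Rhox11 1.95 and Tgif2lx1 1.70 in shSLY against WT); it gave 296 of all genes in shSLY against WT (452 reported) and 62 in shSLX1shSLY against shSLY (15 reported). Counts over all genes moved more than those of the members. Those called in shSLX1shSLY against WT, shSLY against WT, shSLX1 against WT, shSLX1shSLY against shSLY, shSLX1shSLY against shSLX1 and shSLY against shSLX1 were 1303, 452, 261, 15, 1105 and 1003 as reported. They were 500, 257, 135, 5, 514 and 537 without background correction, 480, 256, 131, 4, 505 and 524 with the authors' normalized values, and 3262, 193, 110, 3, 368 and 595 with median scaling. Array quality weights gave 2200, 743, 310, 2597, 2368 and 1995. Leaving out single arrays gave 262 to 1744, 253 to 513, 182 to 330, 0 to 1863, 549 to 2609 and 607 to 1547. The first count was 681 without the filter, and the fourth 9 with every probe. The interaction had 201 genes as reported, 90 with median scaling, 406 with the array set block, 1249 with weights, 111 to 270 leaving out single arrays, and 1659 without both third-set arrays, which gave 2982 and 1704 for shSLX1shSLY and shSLY against shSLX1. Median scaling moved the median log2 ratio to WT of all genes to -0.35 in shSLX1shSLY, -0.08 in shSLY and -0.27 in shSLX1, and turned the shSLX1shSLY calls from 712 higher and 591 lower to 156 higher and 3106 lower; Rhox11 and Tgif2lx1 were called higher there too. Signals near background limit what can be said of Rhox5, Rhox10 and Rhox12.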
